A study of Mus musculus with 6 samples.

Results

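Sult1b1, Sult1d1, Sult2b1, Ugt2b34, Ugt2b5, Ces1f, Ces2a and Ces2e are 8 genes of drug and steroid metabolism in the intestinal epithelium, 3 cytosolic sulfotransferases, 2 UDP-glucuronosyltransferases and 3 carboxylesterases. They were measured in the duodenum of VDR-null mice, which lack the vitamin D receptor, and of wild-type mice. Both genotypes were on the C57Bl/6 background and 10 weeks old, with 3 duodenum samples of each and 1 Affymetrix Mouse Gene 2.0 ST array per sample. The labels do not say that the samples came from separate mice or whether mice were pooled, so p-values measure the spread between these samples, which may be technical. The labels used here give neither the targeted allele nor sex or diet. The 8 genes were taken by symbol from 22180 genes that have a probe set of their own on the array. Each had a single such probe set, and all 8 were among the 13174 genes bright enough to be tested. The test took in genes whose signal exceeded 5.17, the median over the table, on 3 or more of the 6 arrays. Values are log2 signals, so 1 unit is a doubling. They describe one probe set across arrays, and levels of different genes are not set against each other.

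Sulfotransferases move a sulfonate group from the donor PAPS to phenols, catecholamines and steroids, and glucuronosyltransferases attach glucuronic acid from UDP-glucuronic acid. Both reactions make compounds more soluble and ready for export. Carboxylesterases of the endoplasmic reticulum cut esters and amides, among them ester prodrugs, and some of them also act on neutral lipids. In the small intestine these enzymes work mainly in the absorptive enterocytes of the villus, where they form part of the first-pass barrier to swallowed compounds. The vitamin D receptor is a nuclear receptor that binds DNA together with RXR, typically at direct repeats of a hexamer related to AGGTCA with 3 bases between the copies.

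Most of the genes lie in clusters of tandem relatives. By the RefSeq gene table, Sult1b1 and Sult1d1 are direct neighbours among protein-coding genes on chromosome 5, between Ugt2a2 and Sult1e1. On the same chromosome Ugt2b34 lies next to Ugt2b1, and Ugt2b5 between Ugt2b36 and Ugt2b37. Ces2a and Ces2e are on chromosome 8 in the Ces2 cluster, with Ces2b next to the first and Ces2c and Ces2f on either side of the second. Ces1f lies between Ces1e and Ces1g on chromosome 8, and Sult2b1 is on chromosome 7 with no relative beside it. Probes for close relatives can share target sequence, and cross-hybridisation between them was not tested.

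The sequences just upstream of the tandem carboxylesterase genes are shown because Ces2a and Ces2e shared the longest stretch of any pair among the genes. RefSeq start sites of GRCm38.p6 gave 9 windows of 250 bases before the start for 7 of the genes, and Ces1f was not among them. Capitals mark the runs of at least 10 bases that occur in both windows, 40 bases in each, 5′ to 3′ on the gene's own strand (chr8:104733753-104734002 and chr8:104926010-104926259, both plus strand).
Ces2a: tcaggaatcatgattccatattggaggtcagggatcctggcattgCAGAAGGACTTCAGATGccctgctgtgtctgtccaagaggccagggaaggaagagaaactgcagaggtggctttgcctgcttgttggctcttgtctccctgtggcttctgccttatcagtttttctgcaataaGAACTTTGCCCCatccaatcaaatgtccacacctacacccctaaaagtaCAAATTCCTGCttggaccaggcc
Ces2e: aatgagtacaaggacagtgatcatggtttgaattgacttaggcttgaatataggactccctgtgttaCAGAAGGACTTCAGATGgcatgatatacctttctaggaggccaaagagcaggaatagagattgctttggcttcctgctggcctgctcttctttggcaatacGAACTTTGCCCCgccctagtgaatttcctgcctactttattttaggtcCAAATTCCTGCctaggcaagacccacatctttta
The longest shared run, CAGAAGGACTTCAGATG, has 17 bases. It was present in 2 of the 32851 RefSeq windows, those of Ces2a and Ces2e. No other pair of the genes' windows shared a run longer than 11 bases.

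The hexamer AGGTCA, searched on both strands, was present upstream of 3 of the 7 genes. It was found in 3 of their 9 windows and in 14% of all windows. The stretches are printed with the hexamer, or its complement TGACCT, in capitals. They lie at chr5:87140347-87140372 (minus strand), chr5:87538303-87538328 (minus strand) and chr8:104733767-104733792 (plus strand).
Ugt2b5: cttggataaaAGGTCAagcagtgaca
Sult1b1: gttgtcactcTGACCTattacaactg
Ces2a: tccatattggAGGTCAgggatcctgg
None of the 9 windows held a direct repeat of AGNTCA with 3 bases between the copies, again on both strands, which 0.0517% of all windows held. Only exact matches to that pattern were searched, so repeats with other bases in the hexamers were not looked for. A match in letters is no evidence of binding, and the letters say nothing about more distant sites.

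None of the 8 genes differed between VDR-null and wild-type duodenum by limma's moderated test adjusted over all genes, although the mean of the VDR-null arrays was above that of the wild-type arrays in all 8. The mean was above in 44% of the 13174 tested genes. The difference was at least 0.3 in 6 of the 8 and in 8.25% of tested genes. The differences ran from 0.21 for Ugt2b34 to 1.05 for Sult2b1, with a median of 0.48, against a median of -0.03 over all tested genes. At an adjusted p of 0.05 limma called 0% of all genes. At an unadjusted p under 0.05 it called 689 genes, 5.23% of those tested (2.2% higher and 3.03% lower in VDR-null duodenum) and none of the 8. In none of the 8 did the arrays of the genotypes separate without overlap, as they did in 11.1% of tested genes (4.87% higher and 6.22% lower).

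**Figure D1:**
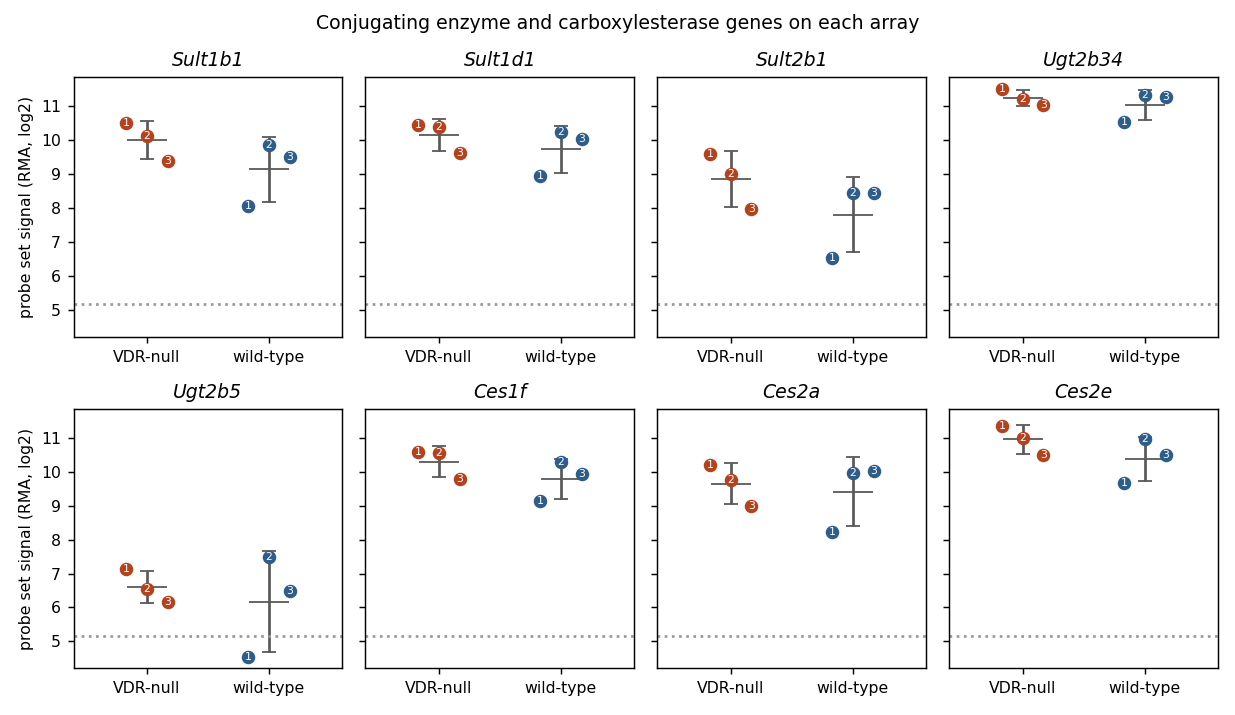
Probe set signal (RMA, log2) of the 8 genes on each array, VDR-null at left and wild-type at right, with the replicate number in each point. Grey marks give the mean and SD of 3 arrays, and the dotted line is the median of all values, 5.17. Wild-type replicate 1 is the lowest point in every panel and VDR-null replicate 1 the highest in all but that of Ugt2b5.

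Sult2b1, which sulfonates cholesterol and other hydroxysteroids, showed the largest difference of the 8. Its signal was 9.61, 8.99 and 7.97 on VDR-null arrays 1 to 3, against 6.52, 8.44 and 8.45 on wild-type arrays 1 to 3. VDR-null replicates 1 and 2 lay above every wild-type array, and VDR-null replicate 3 lay below wild-type replicates 2 and 3. The means, 8.86 ± 0.83 in VDR-null and 7.80 ± 1.11 in wild-type duodenum (SD, n = 3 each), differed by 1.05 ± 0.61 (SE), a 2.08-fold ratio, with a 95% confidence interval of -0.40 to 2.51 (limma adjusted p = 0.683).

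Sult1b1, a sulfotransferase of phenols and thyroid hormones, read 10.51, 10.14 and 9.40 in VDR-null and 8.06, 9.86 and 9.51 in wild-type duodenum. The array order was like that of Sult2b1: VDR-null replicates 1 and 2 were at the top, wild-type replicate 1 was far below the rest, and the remaining wild-type arrays overlapped the VDR-null range. The difference was 0.88 ± 0.49 (SE), with a 95% confidence interval of -0.30 to 2.05 (limma adjusted p = 0.683). For its neighbour Sult1d1, which in the mouse sulfonates dopamine and related amines, the arrays gave 10.46, 10.39 and 9.62 in VDR-null and 8.95, 10.24 and 10.03 in wild-type duodenum. VDR-null replicates 1 and 2 and wild-type replicates 2 and 3 lay within 10.03 to 10.46, and the lower values belonged to VDR-null replicate 3 and wild-type replicate 1. The difference was 0.42 ± 0.38 (SE; limma adjusted p = 0.719).

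Both glucuronosyltransferases belong to the 2B subfamily, which conjugates steroids, bile acids and drugs. Ugt2b34 varied least of the 8, at 11.51, 11.22 and 11.05 in VDR-null and 10.55, 11.34 and 11.26 in wild-type duodenum. Wild-type replicates 2 and 3 lay between VDR-null replicates 1 and 2, and wild-type replicate 1 was the lowest array. Its difference was 0.21 ± 0.23 (SE), with a 95% confidence interval of -0.34 to 0.76 (limma adjusted p = 0.762). Ugt2b5 had the largest SD within a genotype, pooled over both, at 7.12, 6.53 and 6.17 in VDR-null and 4.55, 7.48 and 6.49 in wild-type duodenum. Wild-type arrays were both the highest and the lowest here, and wild-type replicate 1 lay below 5.17, the median over the table. The difference of 0.43 ± 0.69 (SE; limma adjusted p = 0.84) was smaller than the SD of the wild-type arrays, 1.49.

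Among the carboxylesterases, Ces2e and Ces1f had larger differences than Ces2a. Ces2e, of the subfamily whose human member converts the prodrug irinotecan, read 11.36, 10.99 and 10.50 in VDR-null and 9.68, 10.96 and 10.49 in wild-type duodenum. VDR-null replicates 2 and 3 lay almost level with wild-type replicates 2 and 3, and the replicate 1 arrays lay apart on either side. The difference was 0.58 ± 0.35 (SE), with a 95% confidence interval of -0.26 to 1.41 (limma adjusted p = 0.683). Ces1f, of the subfamily that is prominent in rodent liver, gave 10.57, 10.55 and 9.78 in VDR-null and 9.13, 10.29 and 9.92 in wild-type duodenum, a difference of 0.52 ± 0.34 (SE; limma adjusted p = 0.683). VDR-null replicates 1 and 2 were the highest arrays and wild-type replicate 1 the lowest.

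Ces2a is of the same subfamily as Ces2e. Its signal was 10.21, 9.75 and 9.00 in VDR-null and 8.24, 9.95 and 10.03 in wild-type duodenum. Wild-type replicates 2 and 3 lay above VDR-null replicates 2 and 3, the opposite of the order of the means. The difference was 0.24 ± 0.53 (SE), with a 95% confidence interval of -1.01 to 1.50 (limma adjusted p = 0.873).

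The spread within each genotype was wide for these genes. Their SD within a genotype, pooled over both, had a median of 0.69, against 0.15 over all tested genes, and each lay between the 91.6th percentile (Ugt2b34) and the 99.5th percentile (Ugt2b5) of the tested genes. Wild-type replicate 1 was the lowest array in 8 of the 8 genes and in 19.6% of all tested genes. VDR-null replicate 1 was the highest in 7 of them and in 24.4% of tested genes, and VDR-null replicate 3 was the lowest of the VDR-null arrays in all 8 and in 31.2% of tested genes. Wild-type replicate 1 was also the lowest in 15 of 16 brush border genes, 6 of 7 intraepithelial T cell genes and 7 of 9 villus tip genes. VDR-null replicate 1 was the highest in 16, 6 and 8 of these. Neither held in any of 9 crypt genes. The mean of wild-type replicates 2 and 3 lay above wild-type replicate 1 by 0.76 (Ugt2b34) to 2.43 (Ugt2b5), in each of the 8 more than the genotypes differed. The same held in 44.9% of tested genes, and wild-type replicate 1 enters both quantities.

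**Figure D2:**
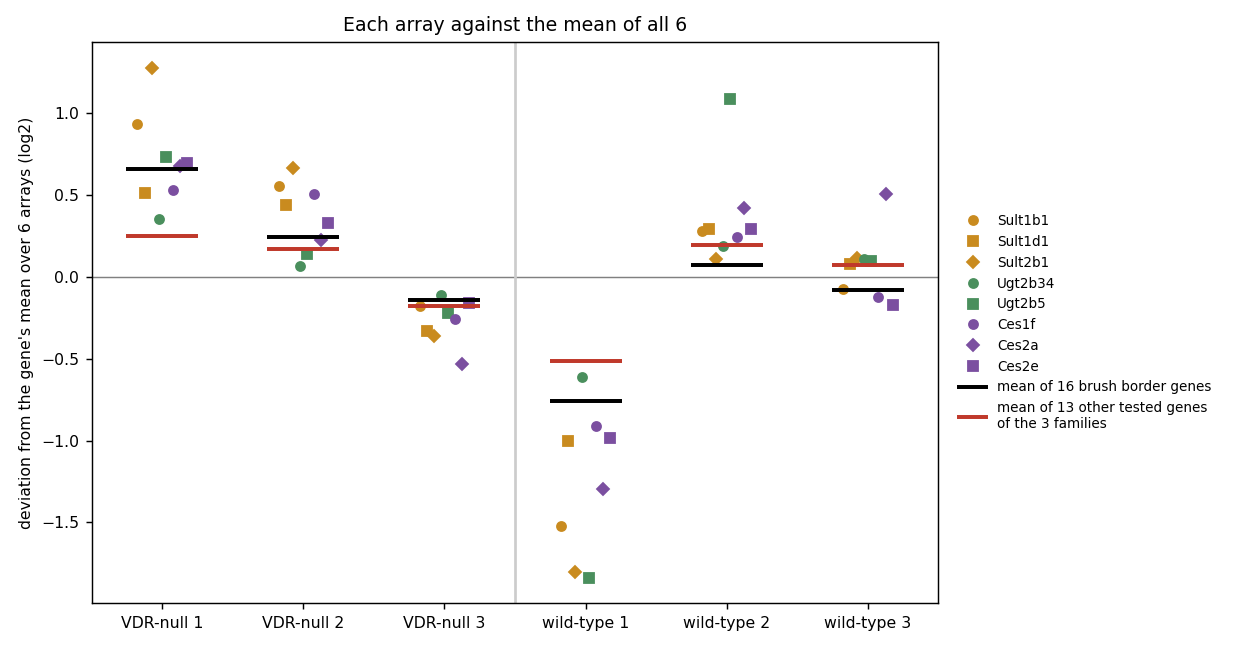
Deviation of each gene from its own mean over the 6 arrays (log2), by array, VDR-null at left and wild-type at right, for sulfotransferases (ochre), glucuronosyltransferases (green) and carboxylesterases (purple). Bars give the mean deviation of 16 brush border genes (black) and of 13 other tested genes of the 3 families (red). The 8 genes lie between 0.36 and 1.28 on VDR-null replicate 1 and between -1.84 and -0.61 on wild-type replicate 1.

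Genes of the enterocyte brush border, among them villin (Vil1), moved over the arrays in the same order. The mean deviation of the 16 tested brush border genes was 0.66, 0.24 and -0.14 on VDR-null arrays 1 to 3 and -0.76, 0.07 and -0.08 on wild-type arrays 1 to 3. That of the 8 genes was 0.71, 0.37 and -0.27 on the VDR-null arrays and -1.24, 0.37 and 0.07 on the wild-type arrays. In whole duodenum, fewer cells of a type and less RNA per cell cannot be told apart. The mean deviation of 9 genes of villus tip enterocytes was 1.21 on VDR-null replicate 1 and -1.10 on wild-type replicate 1, and that of 7 intraepithelial T cell genes was 0.88 and -1.04 on the same arrays. For 9 genes of crypt stem and dividing cells it was -0.38 on VDR-null replicate 1 and 0.40 on wild-type replicate 1. The mean was higher in VDR-null duodenum in all 16 brush border genes, all 7 T cell genes and 8 of the 9 villus tip genes. Their median differences were 0.50, 0.70 and 0.72. It was lower in all 9 crypt genes, all 8 smooth muscle genes and all 4 tested genes of Brunner glands and stomach-type mucosa. Median differences there were -0.34, -0.37 and -1.26, and 8 goblet cell genes had a median difference of -0.01. Of all tested genes, 44% had a higher mean in VDR-null duodenum. Without both replicate 1 arrays, the mean was higher in 12 brush border, 5 T cell and 3 villus tip genes. Their median differences were then 0.07, 0.15 and -0.17, and 54.4% of tested genes were higher. In that fit 8 crypt genes, all 8 smooth muscle genes and all 4 Brunner gland and stomach-type genes were lower, with medians of -0.10, -0.28 and -1.13. The part of these cell types in the differences of the 8 genes was not tested.

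The brush border mean comes from the same 6 arrays, and its 16 genes all had a higher mean in VDR-null duodenum. A covariate that itself differs between the genotypes can take up part of their difference. Signs and intervals in such a fit therefore depend on the covariate. Nor can the fit separate a change in enterocyte number from one in RNA per cell. With that mean of each array as a covariate, all 8 differences were below 0. So were those of 6002 of the 13174 tested genes, and 54.4% were above 0. Ces2a then stood at -0.72 ± 0.20 (SE; limma adjusted p = 0.999), with a 95% confidence interval of -1.21 to -0.24. It alone of the 8 passed the unadjusted threshold there, as 3.65% of tested genes did. Ugt2b5 stood at -0.76 and the other 6 between -0.26 and -0.04, with intervals that included 0. Without wild-type replicate 1, 5 of the 8 means stayed above in VDR-null duodenum, against 49% of tested genes, and the median difference was 0.11. Sult2b1 was then at 0.42, Sult1b1 at 0.33, Ces2e at 0.23, Ces1f at 0.20 and Sult1d1 at 0.02, and Ugt2b34, Ces2a and Ugt2b5 were at -0.05, -0.34 and -0.38. Without VDR-null replicate 1, 7 of the 8 stayed above, against 49.7% of tested genes, and Ces2a stood at -0.03. Without both replicate 1 arrays, 4 were above, against 54.4%, and the median was -0.06. In that fit Ces2a differed by -0.62 (95% confidence interval -1.28 to 0.04) and Ugt2b5 by -0.63 (-1.51 to 0.25), and the 95% confidence interval of all 8 genes included 0. In that fit 2.82% of tested genes passed the unadjusted threshold.

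**Figure D3:**
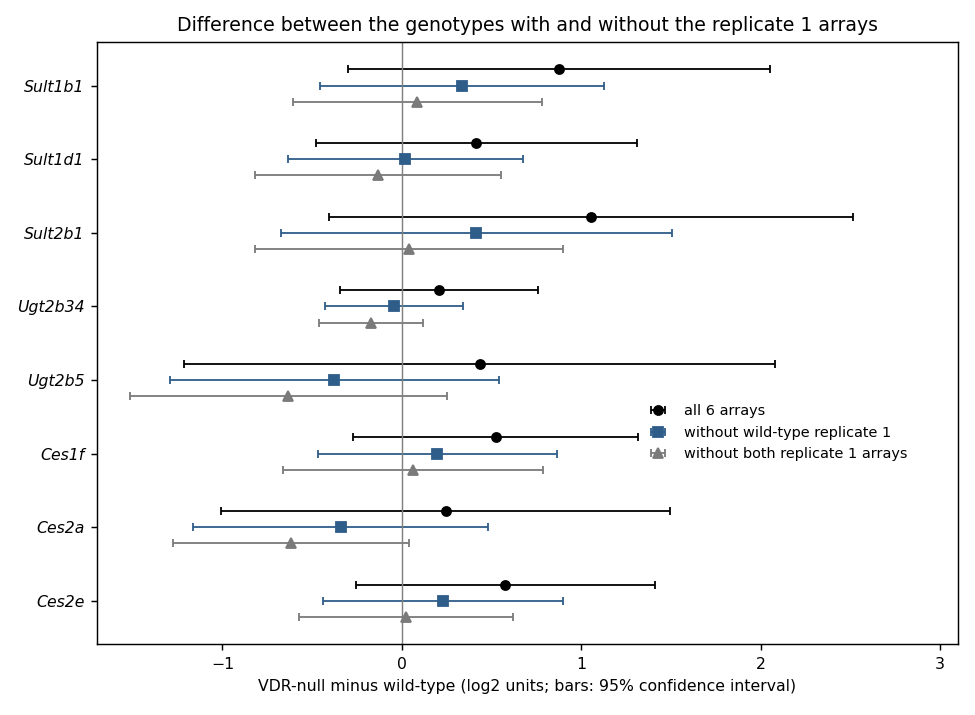
Difference between the genotypes (VDR-null minus wild-type, log2) for the 8 genes, from all 6 arrays, from the 5 left when wild-type replicate 1 is dropped and from the replicate 2 and 3 arrays; bars are 95% confidence intervals. All intervals include 0, and Ces2a and Ugt2b5 change from 0.24 and 0.43 with all arrays to -0.62 and -0.63 without both replicate 1 arrays.

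Other cell types that could bring transcripts of these families were checked by their markers. Of 11 hepatocyte genes, 9 were dim on most arrays, with albumin (Alb) between 4.13 and 4.50. The 2 that were tested, Ttr and Cps1, had lower means in VDR-null duodenum. Cps1 read between 11.98 and 12.56 over the arrays. Ttr passed the unadjusted threshold (difference -0.45, limma adjusted p = 0.683), as 5.23% of tested genes did. Its arrays did not overlap between the genotypes, as was so in 11.1% of tested genes. Whether the signal of Ttr and Cps1 came from hepatocytes was not tested. Pancreatic acinar genes were high on VDR-null replicate 3, where the mean level of 9 genes was 8.57, against 6.13 and 5.26 on VDR-null replicates 1 and 2 and 4.98 to 5.33 on the wild-type arrays. VDR-null replicate 3 was also the VDR-null array with the lowest signal in all 8 genes. Without it all 8 means were above in VDR-null duodenum, against 42% of tested genes, with a median difference of 0.73, and Sult2b1 alone of the 8 passed the unadjusted threshold (difference 1.50; limma adjusted p = 0.415), as 11.9% of tested genes did in that fit. Whether the acinar transcripts play a part in the lower values was not tested.

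The rest of the 3 families was mixed. Among 55 other listed genes, 43 had a probe set of their own and 13 were tested. Of the 13, 8 had a higher and 5 a lower mean in VDR-null duodenum, against 44% of all tested genes higher. The median difference of the 13 was 0.05. None passed an adjusted or unadjusted p of 0.05 in limma, which called 0% and 5.23% of tested genes. Ces1b alone had no overlap between the genotypes, against 11.1% of tested genes. A further 10, among them Ugt1a1, Ugt1a6a and Ugt2a1, are read only by probe sets shared between several genes, and no value is given for them. Ugt1a8 and Ces2c had no match in the annotation used. The 30 dim genes, whose signals lay between 2.66 and 5.09, were 15 sulfotransferases (Sult1c1, Sult1e1, Sult2a1 to Sult2a8, Sult3a1, Sult3a2, Sult4a1, Sult5a1 and Sult6b1), 6 glucuronosyltransferases (Ugt2b1, Ugt2b37, Ugt2b38, Ugt3a1, Ugt3a2 and Ugt8a) and 9 carboxylesterases (Ces1a, Ces1c, Ces1h, Ces2f, Ces2h, Ces3a, Ces3b, Ces4a and Ces5a).

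Sult6b2 was the sulfotransferase whose arrays spread furthest. It read 11.78, 11.21 and 10.53 in VDR-null and 8.36, 11.02 and 10.71 in wild-type duodenum, a difference of 1.14 ± 0.70 (SE; limma adjusted p = 0.683). Dropping wild-type replicate 1 left 0.30. The array order was that of Sult1b1. In contrast, the phenol sulfotransferase Sult1a1 was lowest on VDR-null replicate 1, with 6.96, 7.86 and 7.90 in VDR-null and 7.86, 7.42 and 7.52 in wild-type duodenum. Sult1c2 was also lowest on that array, at 5.64, and differed by -0.24 ± 0.19 (SE).

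Ugt2a3 read 9.11, 8.50 and 8.02 in VDR-null and 7.12, 8.35 and 7.92 in wild-type duodenum, a difference of 0.75 ± 0.37 (SE; limma adjusted p = 0.683). Dropping wild-type replicate 1 left 0.41. Only wild-type replicate 2 reached into the VDR-null range. Ugt2b36 differed by 0.10 ± 0.25 (SE). Ugt2b35 lay between 8.23 and 8.28 on VDR-null and between 8.10 and 8.29 on wild-type arrays.

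Ces2b, the neighbour of Ces2a, had the same 3 lowest arrays as Ces2a. It read 6.63, 6.39 and 4.86 in VDR-null and 4.38, 6.87 and 7.07 in wild-type duodenum, and the difference was -0.15 ± 0.79 (SE; limma adjusted p = 0.951). On VDR-null replicate 3 and wild-type replicate 1 it lay below 5.17. Without both replicate 1 arrays the difference was -1.35 ± 0.49 (SE; limma adjusted p = 0.999), and with the brush border covariate it was -1.56 ± 0.36 (SE; limma adjusted p = 0.999). Both passed the unadjusted threshold, as 2.82% and 3.65% of tested genes did in those fits. Ces1g, next to Ces1f, differed by 0.35 ± 0.29 (SE), or 0.07 when VDR-null replicate 1 was left out. Ces1b differed by -0.24 ± 0.12 (SE), with 5.28, 5.02 and 5.32 in VDR-null and 5.34, 5.60 and 5.42 in wild-type duodenum, and VDR-null replicate 2 lay below 5.17. The remaining tested genes of the family, Ces1d, Ces1e, Ces2g and the pseudogene Ces2d-ps, differed by -0.03, 0.05, 0.16 and 0.20.

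Genes that supply the cosubstrates had 8 of 10 means above in VDR-null duodenum, against 44% of all tested genes. The median difference was 0.24, against -0.03 over all tested genes, and none of the 10 passed either threshold. Papss2, which makes the sulfonate donor PAPS, read 12.93, 12.74 and 12.49 in VDR-null and 11.15, 12.67 and 12.44 in wild-type duodenum. Its difference of 0.64 ± 0.38 (SE; limma adjusted p = 0.683) became 0.17 without wild-type replicate 1, which stood alone. Bpnt1, which clears the by-product of sulfonation, differed by 0.55 ± 0.26 (SE), or 0.28 without that array. Ugdh, which makes UDP-glucuronic acid, differed by 0.51 ± 0.35 (SE), or 0.20 without that array. Papss1 (7.19 to 7.28 on VDR-null and 7.11 to 7.23 on wild-type arrays) and Ugp2, which makes UDP-glucose (8.97 to 9.16 on VDR-null and 8.96 to 9.06 on wild-type arrays), had narrower ranges. The sulfate transporter Slc26a2 differed by 0.41 ± 0.18 (SE; limma adjusted p = 0.683), and the nucleotide sugar and PAPS transporters Slc35d1, Slc35b3 and Slc35b2 by 0.37, 0.11 and -0.10. Bpnt2, a phosphatase related to Bpnt1, differed by -0.03.

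Export pumps for conjugates and drugs split, with 4 of 6 means above and 2 below, against 44% of all tested genes above. Abcc2, the apical pump for glucuronides and other conjugates, read 11.40, 10.60 and 10.12 in VDR-null and 8.80, 10.87 and 10.51 in wild-type duodenum. As for Ces2a, wild-type replicates 2 and 3 lay above VDR-null replicate 3, and the difference was 0.65 ± 0.57 (SE; limma adjusted p = 0.716), which was 0.02 with wild-type replicate 1 left out. Abcb1a, the drug efflux pump P-glycoprotein, differed by 0.81 ± 0.44 (SE), or 0.41 without that array. Abcc4 was the only one of the 6 past the unadjusted threshold (difference -0.27, limma adjusted p = 0.683), as 5.23% of tested genes were. It read 6.44, 6.52 and 6.54 in VDR-null and 6.92, 6.68 and 6.71 in wild-type duodenum. The genotypes did not overlap there, nor did they in 11.1% of tested genes. Abcc3, the basolateral conjugate pump, differed by 0.36 ± 0.21 (SE), Abcg2, an apical pump for sulfates and drugs, by 0.40 ± 0.23 (SE) and Abcc1 by -0.18 ± 0.17 (SE).

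**Figure D4:**
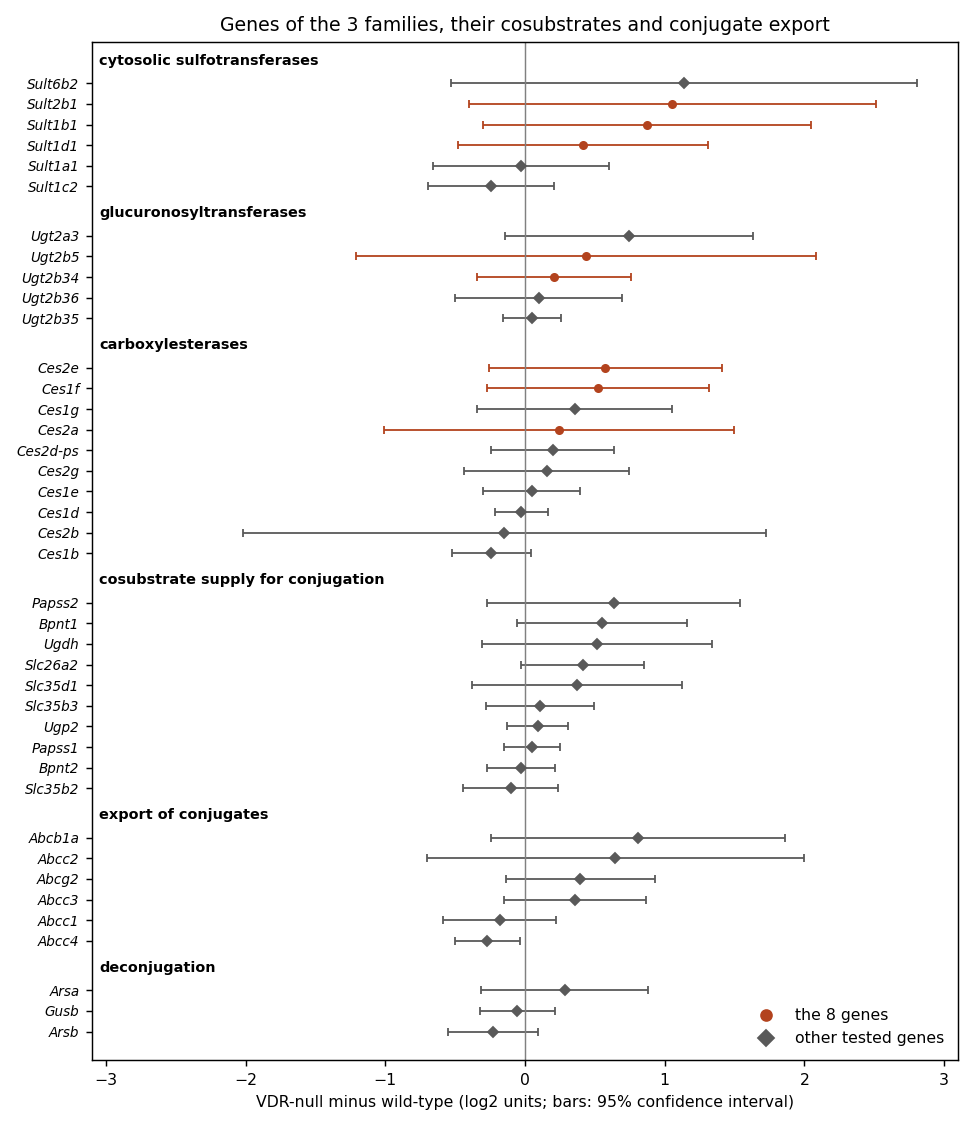
Difference between the genotypes (VDR-null minus wild-type, log2, with 95% confidence intervals) for every tested gene of the 3 families, of cosubstrate supply, of conjugate export and of deconjugation. The 8 genes are red circles and the others grey diamonds. The interval of Abcc4, from -0.50 to -0.04, is the only one that leaves out 0. At an unadjusted p under 0.05 limma called 5.23% of all tested genes.

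The genes most like each of the 8 were found by the root mean square difference over the 6 arrays, after each gene was set to its own mean. A small value means that a gene moved by nearly the same amount on every array, and over as few as 6 arrays this is a description only. Sult1d1 lay closest to Acad11 (0.03) and Hsd17b2 (0.03), a steroid dehydrogenase, and Sult1b1 to Abcg8 (0.09), a sterol efflux transporter, and Slc7a9 (0.10), an amino acid transporter. Sult2b1 was nearest to the fructose transporter Slc2a5 (0.07) and to Sec14l2 (0.12). For the esterases the nearest were Errfi1 (0.06) and Tmem139 (0.06) for Ces1f, Abhd3 (0.06) and Ehhadh (0.06), a peroxisomal enzyme, for Ces2e, and Gstk1 (0.18) and the iron exporter Slc40a1 (0.18) for Ces2a. Ugt2b34 came closest to Myh14 (0.07) and Abcd3 (0.08), and Ugt2b5 to Slc6a20a (0.28) and the glutathione transferase Gsta4 (0.29). Among the 8 themselves the closest pair was Sult1d1 and Ces1f, which differed by 0.10. Ugt2b5 stood furthest from its nearest member, Sult1b1, at 0.41, but the measure grows with how much a gene varies. By closeness among all tested genes, Sult1b1 had rank 20 for Ugt2b5. For Ugt2b34 the nearest member, Sult1d1 (0.25), had rank 1802.

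Vdr, the targeted gene, does not check the labels, since the labels do not say which part of it is missing, and the probe set may lie outside that part. Its probe set read 10.99, 10.86 and 10.85 in VDR-null and 10.72, 10.95 and 11.11 in wild-type duodenum. The 6 arrays had medians between 5.15 and 5.19, and no 2 were identical.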

How the data were processed

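RNA of 3 VDR-null and 3 wild-type duodenum samples was hybridised to Affymetrix Mouse Gene 2.0 ST arrays, 1 per sample, from 150 ng of total RNA per the labels. Per the submitters' processing notes, the authors used RMA and Affymetrix Expression Console, and the deposited table holds 1 log2 signal for each probe set and array. No version or genome build was found in the labels, and base 2 follows from RMA and the range of 1.99 to 13.77.

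Of 41345 probe sets, the platform annotation gave 23521 a single gene symbol, 1814 several and 16010 none, and only the first were named. The probe set with the highest mean stood for a gene. The comparison of genotypes used lmFit and eBayes of limma 3.58.1 (R 4.3.3; two-sided, without covariates, Benjamini-Hochberg over 13174 tested genes, threshold 0.05), tested on simulated data. The simulated noise was independent for each gene and array, so array shifts shared by many genes were not covered. Differences are VDR-null minus wild-type, and 3 arrays per genotype limit the precision. Promoter sequences are from RefSeq (GRCm38.p6). The 8 genes and the 16 gene lists were chosen with earlier results of these data known, so counts over them are descriptions. Named genes were the 8, the genes of the lists on conjugation and its regulators (by value where tested) and the 2 most alike genes of each of the 8. The 19 alternatives covered the filter, the normalization, the variance prior, array weights, covariates, arrays left out and the summary of probe sets.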

Additional observations from a re-analysis of the deposited data

How the results depend on the processing

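No alternative gave a gene past an adjusted p of 0.05, over all genes or in the 3 families. Genes at an unadjusted p under 0.05 numbered 689, but 2718 with array weights, 1278 with no filter, 338 with the replicate block, 372 from the replicate 2 and 3 arrays and 284 to 1569 with 1 array left out. Replicate numbers were not taken as pairs of samples. Arrays of the same number had correlations of deviations of -0.62, 0.19 and -0.26, and 3 such values cannot show whether samples were paired. The replicate block left the median difference at 0.48.

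The median over the 8 genes was 0.11 to 0.82 with 1 array left out, -0.06 from the replicate 2 and 3 arrays alone and -0.15 once the brush border mean was a covariate. Leaving out 1 array gave -0.34 to 0.57 for Ces2a, -0.38 to 1.09 for Ugt2b5, -0.0451 to 0.35 for Ugt2b34, -1.01 to 0.40 for Ces2b, 0.07 to 0.64 for Ces1g and 0.12 to 0.45 for Nr1i2. Ces2b stood at -1.56 with the brush border covariate. With 1 array left out, the differences of the other 5 of the 8 stayed above 0.

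Signs also turned without both replicate 1 arrays for Sult1d1 (-0.13), Ugt2b34 (-0.17), Ugt2b5 (-0.63), Ces2a (-0.62), Ces1g (-0.0258), Ugdh (-0.0585) and Abcc2 (-0.33). With the brush border covariate they turned for Sult1b1 (-0.0382), Sult2b1 (-0.10), Sult1d1 (-0.26), Ugt2b34 (-0.20), Ugt2b5 (-0.76), Ces1f (-0.0671), Ces2a (-0.72), Ces2e (-0.0666), Sult6b2 (-0.13), Ces1g (-0.10), Papss2 (-0.0058), Ugdh (-0.14), Abcc2 (-0.41), Abcb1a (-0.00080) and Nr1i2 (-0.0070). The cause was not tested. Ugt2b5, Ces1b and Ces2b were not tested when all 6 arrays had to lie above the median. Low signal, below 5.17 on some arrays, limits these 3 genes.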

Other observations

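Transcription factors of xenobiotic metabolism and of enterocytes were measured on the same arrays. Of 10 tested factors 9 had a mean above in VDR-null duodenum, against 44% of all tested genes. The median difference was 0.13, against -0.03, and none passed an adjusted or unadjusted p of 0.05 in limma. With the brush border covariate 6 of the 10 were above, with a median of 0.0061. Without both replicate 1 arrays 8 were above, with a median of 0.035. In each of these 2 fits 54.4% of tested genes were above. Nr1i3, the nuclear receptor CAR, read 9.37, 8.80 and 8.29 in VDR-null and 7.39, 8.59 and 8.26 in wild-type duodenum. Wild-type replicate 1 was the lowest array and VDR-null replicate 1 the highest, and the difference was 0.74 ± 0.37 (SE; limma adjusted p = 0.683). Dropping wild-type replicate 1 left 0.39. Nr1i2, the pregnane X receptor, differed by 0.31 ± 0.20 (SE), or 0.12 with wild-type replicate 1 left out. Hnf4a, a factor of enterocytes and hepatocytes, lay between 10.92 and 11.06 on VDR-null and between 10.89 and 11.16 on wild-type arrays, and Ahr, the dioxin receptor, between 7.96 and 8.15 on VDR-null and between 7.83 and 8.18 on wild-type arrays. Nfe2l2, the factor of the oxidative stress response, had no overlap between the genotypes, as was so in 11.1% of tested genes. It read 10.98, 10.92 and 10.90 in VDR-null and 10.71, 10.89 and 10.84 in wild-type duodenum, a difference of 0.12 ± 0.09 (SE). Hnf4g, Rxra, Ppara and Cdx2 differed by 0.37, 0.15, 0.15 and 0.12, and Arnt by 0.0043.

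The 3 tested genes of the list on deconjugation did not share a direction. Sts, the steroid sulfatase gene of that list, had no match in the annotation used, and no value is given for it. Gusb, the lysosomal glucuronidase, read 7.97, 8.32 and 8.19 in VDR-null and 8.25, 8.26 and 8.13 in wild-type duodenum. Arsa and Arsb, lysosomal sulfatases, differed by 0.28 and -0.23, and neither passed either threshold in limma.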
